A study of Mus musculus with 8 samples.

Results

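The nuclear genes of oxidative phosphorylation were compared between Control ovaries and ovaries with a conditional knockout of the receptor genes Insr and Igf1r. Members were the protein-coding nuclear genes whose symbols begin with Nduf, Uqcr, Atp5 or Cox4 to Cox8, together with the 4 Sdh subunit genes and Cyc1, with pseudogenes left out. They came to 97 of the 41591 gene IDs counted in each library: 39 of Complex I, 8 Complex I assembly factors, 4 of Complex II, 9 of Complex III, 20 of Complex IV and 17 of Complex V.

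RNA sequencing was done on whole ovaries of 8 female C57BL/6 mice about 3 weeks old. The 4 Control mice were littermates labelled wild type and positive for Pgr-Cre, in which the progesterone receptor gene Pgr drives the recombinase, and the 4 DKO mice carried the conditional Insr-Igf1r double knockout, which removes the receptors for insulin and insulin-like growth factor 1. Both groups were superovulated with 4 IU of equine chorionic gonadotropin (eCG), which drives follicles to grow, and 48 h later with 5 IU of human chorionic gonadotropin (hCG), which triggers ovulation. Ovaries were removed 12 h after hCG. A whole ovary also holds cells that never express Pgr, in which this Cre has no promoter to drive it. In such bulk tissue, fewer cells of a type and less RNA per cell cannot be told apart.

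Oxidative phosphorylation takes electrons from NADH at Complex I and from succinate at Complex II, passes them through ubiquinone, Complex III and cytochrome c to oxygen at Complex IV, and uses the proton gradient so formed to drive the ATP synthase, Complex V. Most subunits are encoded in the nucleus and imported into mitochondria, and the transcription factors NRF1 and GABP, which bind short motifs near the start of many of these genes, are known for driving them together. In the ovary after the ovulatory stimulus, granulosa cells turn into luteal cells, which make progesterone in mitochondria and hold them in large number.

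The libraries held 33145056 to 39257648 counts, and the members took 0.801% to 1.09% of them in Control and 0.953% to 1.11% in DKO. The knockout targets were only slightly lower in counts over the whole gene. Insr was at 155 ± 10.3 CPM (counts scaled to library size) in Control and 126 ± 16.8 in DKO, and Igf1r at 236 ± 28.6 and 214 ± 22.4 (mean ± SD, n = 4 each), with adjusted p-values of 0.226 and 0.639 by edgeR's quasi-likelihood test. The first principal component, with 38.3% of the variance, set Control 1, DKO 1 and DKO 2 apart from the other 5 libraries, and the numbers in the sample titles are also lower for these 3. Oviduct markers summed to 1198 CPM in Control 1 and 769 in DKO 2 and to at most 27.9 in the others. The beta globin gene Hbb-bs was at 0.609 and 1.06 CPM in DKO 1 and DKO 2 and at 105 to 442 in the others, while the alpha globin gene Hba-a1 was at 73.6 to 248.5 in all 8, although all carry the same strain label. The count tables hold 24 mitochondrial genes, none of them protein-coding, so the subunits encoded in mitochondria were not analysed here. These ribosomal and transfer RNA genes took 0.0411% to 0.0511% of counts in Control, 0.219% and 0.249% in DKO 1 and DKO 2, and 0.0745% and 0.0675% in DKO 3 and DKO 4.

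The DNA just before the start of these genes is shown first, for the motifs by which many are held to be controlled together. Promoter sequence from RefSeq (GRCm38.p6) was found for 78 members, 72 of them among those tested below, and the 250 bases before each start were searched on both strands. The NRF1 motif, GCGCA and GCGC with 1 base of any kind between them, was in 19.4% of the 72 members and in 5.84% of 17492 protein-coding genes. The core of the ETS motif bound by GABP, CCGGAAG, was in 18.1% and 10.2%, a YY1 motif, AAGATGG, in 1.39% and 4.77%, and the core that HIF factors bind, ACGTG, in 19.4% and 20%. A match describes letters in this window, and binding was not measured. The 170 bases before the start are printed for 6 members, with NRF1 and ETS matches in capitals. Of the 6, 5 were chosen for their matches after the search, and Sdhb, which holds none, for its expression.
Sdha, catalytic subunit of Complex II, chr13:74350241-74350410, minus strand, with 3 NRF1 matches: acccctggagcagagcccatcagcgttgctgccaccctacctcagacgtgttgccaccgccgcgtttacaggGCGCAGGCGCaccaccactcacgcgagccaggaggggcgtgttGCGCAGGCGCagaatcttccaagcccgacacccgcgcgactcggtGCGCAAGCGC
Sdhb, iron-sulfur subunit of Complex II, chr4:140961101-140961270, plus strand, with no match: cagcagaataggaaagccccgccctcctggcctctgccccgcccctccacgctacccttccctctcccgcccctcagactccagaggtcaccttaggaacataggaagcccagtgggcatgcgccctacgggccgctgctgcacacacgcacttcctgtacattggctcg
Sdhd, membrane anchor of Complex II, chr9:50603850-50604019, minus strand, with 1 match of each kind: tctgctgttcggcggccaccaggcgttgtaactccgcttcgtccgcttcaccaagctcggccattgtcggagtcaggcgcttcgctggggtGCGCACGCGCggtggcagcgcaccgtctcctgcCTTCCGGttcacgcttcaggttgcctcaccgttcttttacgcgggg
Cox6a1, subunit of Complex IV, chr5:115348959-115349128, minus strand, with 2 NRF1 matches and 1 ETS match: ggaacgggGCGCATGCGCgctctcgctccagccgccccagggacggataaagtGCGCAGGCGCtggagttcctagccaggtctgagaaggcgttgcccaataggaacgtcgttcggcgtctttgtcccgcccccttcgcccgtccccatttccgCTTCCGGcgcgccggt
Atp5h, peripheral stalk subunit of Complex V, chr11:115419920-115420089, minus strand, with 1 match of each kind: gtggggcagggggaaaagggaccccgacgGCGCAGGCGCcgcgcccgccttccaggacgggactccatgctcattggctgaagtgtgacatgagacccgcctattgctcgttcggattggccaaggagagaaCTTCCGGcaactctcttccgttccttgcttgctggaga
Uqcr11, small subunit of Complex III, chr10:80406822-80406991, minus strand, with 1 ETS match: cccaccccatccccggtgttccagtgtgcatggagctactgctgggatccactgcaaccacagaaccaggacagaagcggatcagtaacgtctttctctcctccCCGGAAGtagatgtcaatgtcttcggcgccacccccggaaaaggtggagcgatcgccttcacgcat

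Levels per length spread over more than 10-fold within Complexes I, IV and V and less within Complexes II and III. On the scale of CPM per kb of exon, the median in Control ovaries was 66.6 over the tested members of Complex I, 96.3 for Complex II, 106 for Complex III, 130 for Complex IV and 128 for Complex V, and 9.03 for the Complex I assembly factors, which build the complex but are not part of it. Atp5b, the catalytic beta subunit of the ATP synthase, had the highest level of all at 611. Among the Complex IV subunits, the 11 found in most tissues had a median of 242, and the 5 tested isoforms known from muscle, lung, testis or low oxygen a median of 3.02.

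**Figure D1:**
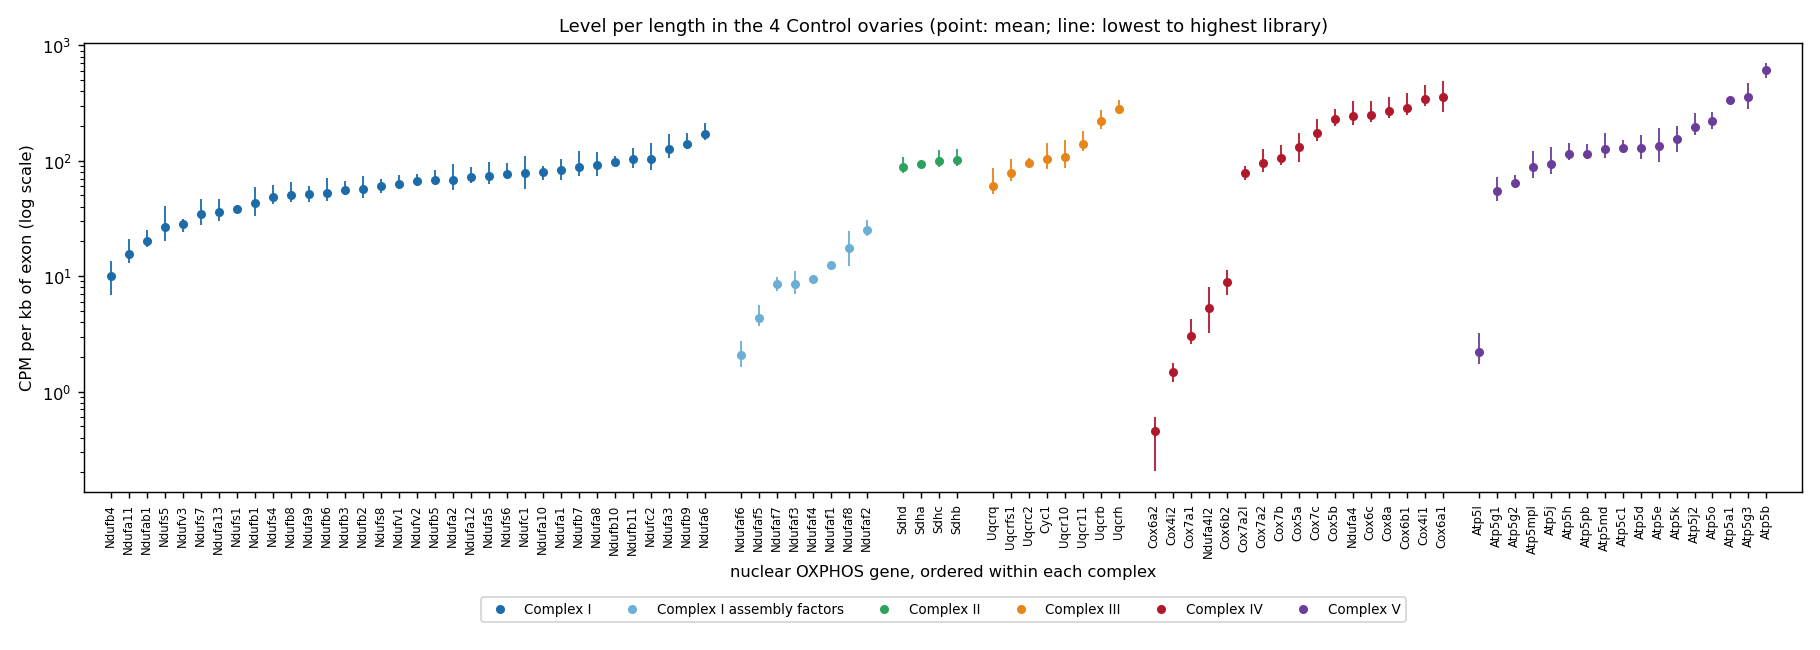
Level of 88 of the 89 tested members in the 4 Control ovaries, as CPM per kb of exon on a log scale, grouped by complex (point, mean; line, lowest to highest library). The assembly factors, at 2.08 to 25.3, lie below most subunits of Complex I, and the restricted isoforms Cox6a2, Cox4i2, Cox7a1, Ndufa4l2 and Cox6b2 lie between 0.455 and 8.94, far below the common subunits of Complex IV.

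For a few members no usable level was obtained. Of the 97 members, 89 passed the filter on low counts and 8 did not. Ndufs3, Ndufa7 and Uqcrc1, which encode ubiquitous subunits, were listed at 0 in all 8 libraries, and in each of them the table spreads the gene's exons over several sequences of the assembly. Of 1010 protein-coding genes listed in that way, 37% were at 0 in every library, against 14.8% of 20651 listed on 1 sequence, so no level is given for these 3. The others not tested were Ndufb4b, at 0 in every library, and Ndufb4c, Cox7b2, Cox8b and Cox8c, with at most 4 counts in any library. Atp5l, at 0.804 to 1.65 CPM, and Ndufb4, at 3.14 to 6.13 CPM, stood far below their partner subunits, and their values are given as uncertain, since both genes have near-identical copies. The named Atp5l copies held 8, 2 and 65 counts over all libraries, and why these 2 members were low was not tested.

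No member passed the test between DKO and Control, while nearly all of them leaned the same way. With edgeR's quasi-likelihood test and Benjamini-Hochberg adjustment over all 16870 genes tested, 0 of the 89 members had an adjusted p under 0.05, where 1.26% of all genes did, 0.759% of them higher and 0.498% lower in DKO. The smallest adjusted p was 0.0872, for Cox4i2. At an unadjusted p under 0.05, 11 members (12.4%) were higher in DKO and 0 lower, beside 8.43% of all genes on the higher side and 15.4% on either. DESeq2 called 3 members higher (Cox4i2, Ndufv3 and Sdhb), where it called 3.81% of all genes higher, limma-voom called 0, and limma-voom with sample quality weights called 16 higher, where it called 5.9% of all genes higher.

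The fitted log2 fold change, DKO over Control, was above 0 in 86 of the 89 members, against 46.9% of all genes tested. Among other protein-coding genes of at least 5 CPM, the share above 0 was 96.3% of 27 genes under 0.5 kb of exon, 71.7% at 0.5 to 1 kb, 59.1% at 1 to 2 kb and 53.3% at 2 to 4 kb, lengths at which members lie. The median log2 fold change was 0.18 over the members, a 1.13-fold difference, and -0.02 over all genes. The interquartile range over the members was 0.10 to 0.22, and the median SE of a member was 0.14. Below 0 were Cox6a2 (-0.27 ± 0.48, SE), Atp5l (-0.17 ± 0.30) and Cox7a2l (-0.14 ± 0.11). In simulated libraries of this design, the test recovered 24.4% of genes changed 1.5-fold, and smaller changes were not simulated. The changed genes were drawn from all genes of at least 5 CPM, with no shift shared between genes of a library. The rate is thus not one for the members.

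**Figure D2:**
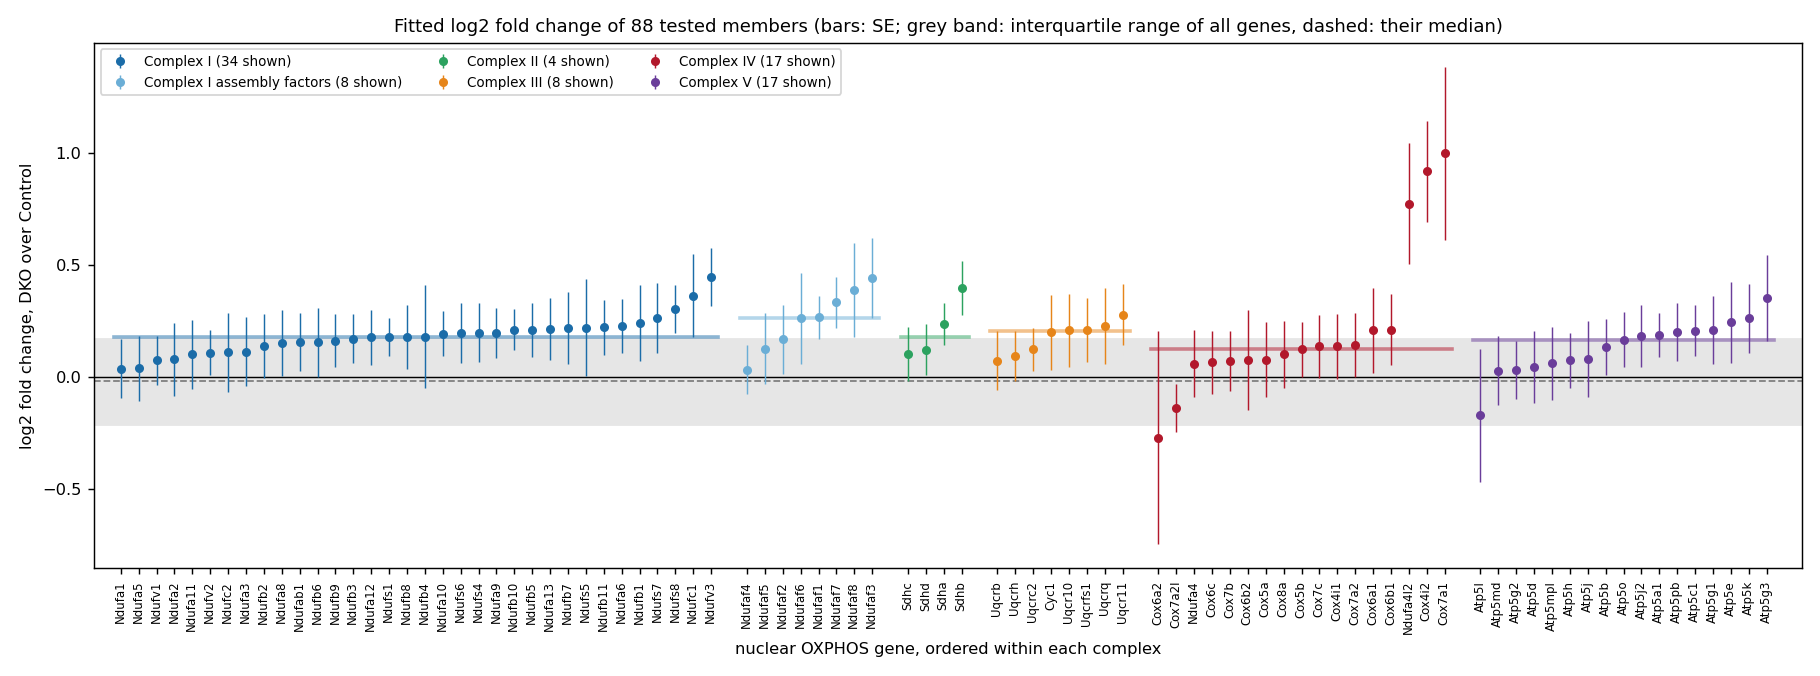
Fitted log2 fold change, DKO over Control, of 88 of the 89 tested members, ordered within its complex (bars, SE; coloured lines, median of the complex; grey band, interquartile range of all genes tested; dashed line, their median). Nearly all points lie above 0, with medians of 0.12 for Complex IV to 0.26 for the assembly factors, and 3 Complex IV isoforms stand above the rest.

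One Control library stood apart in nearly every member. Control 3 had the highest value of the 4 controls in 86 of the 89 members and the highest of all 8 libraries in 64. The median member stood 0.39 (log2) above the Control mean in Control 3, and at -0.12, -0.08 and -0.15 in Control 1, 2 and 4. In DKO 1 to 4 the median member stood at 0.22, 0.05, 0.23 and 0.21. All 4 DKO libraries thus lay between Control 3 and the other 3 controls.

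The DKO values lay above all 4 Control values in 8 members (8.99%), beside 5.7% of all genes, and below all 4 in 0, beside 3.54%. Control 3 was singled out as the highest control in most of these same members, so leaving it out favours separated values in them. Without Control 3, the DKO values lay above the 3 remaining controls in 70 members (78.7%), beside 12% of all genes, a share not matched for length. In that fit the members' median was 0.29, with 87 of 89 above 0, and 6 were called higher (Ndufa4l2, Ndufb7, Sdhb, Uqcr10, Uqcr11 and Uqcrq), beside 1.98% of all genes. Leaving out any of the other libraries left the median between 0.12 and 0.22 with 0 members called. In the 5 libraries that lay together on the first principal component, 3 Control and 2 DKO, the median was 0.18, with 85 of 89 members above 0 and 0 called, and the remaining 3 hold 1 Control only, too few for a fit of their own.

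Transcript length, luteal markers and mitochondrial ribosomal and transfer RNA are set beside the members here, and their part in the result was not tested. The share of mitochondrial RNA was higher in all DKO libraries than in any control. DKO 2, with the highest share at 0.249%, had the lowest median member of the DKO libraries. Control 3 had the highest median member of all libraries, and its share of 0.0511% was the highest among the controls. Most members have short transcripts, and in Control 3 short genes of other kinds were also high: protein-coding genes of at least 5 CPM with 0.5 to 1 kb of exon had a median of 0.35 above the Control mean there, and genes over 4 kb a median of -0.16. Between the groups, other genes of 0.5 to 1 kb had a median log2 fold change of 0.09, against 0.15 for 34 members of that length, and those under 0.5 kb 0.10, against 0.16 for 12 members. At 1 to 2 kb the medians were 0.05 and 0.20 (29 members), and at 2 to 4 kb 0.02 and 0.19 (9 members). With each library's trend on length taken out, the members' median was 0.10, with 76 above and 13 below 0.

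The summed CPM of 10 luteal and steroidogenic markers was 10140, 12220, 18370 and 13210 in Control 1 to 4, and 19830, 18670, 24700 and 24160 in DKO 1 to 4. Control 3 was again the highest control, and all DKO values lay above it. Of the 10 markers, 9 were above 0 in log2 fold change, beside 46.9% of all genes, with a median of 0.86. Called higher in DKO were 4 (Oxtr, Ptgfr, Mgarp and Hsd3b1), beside 0.759% of all genes.

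**Figure D3:**
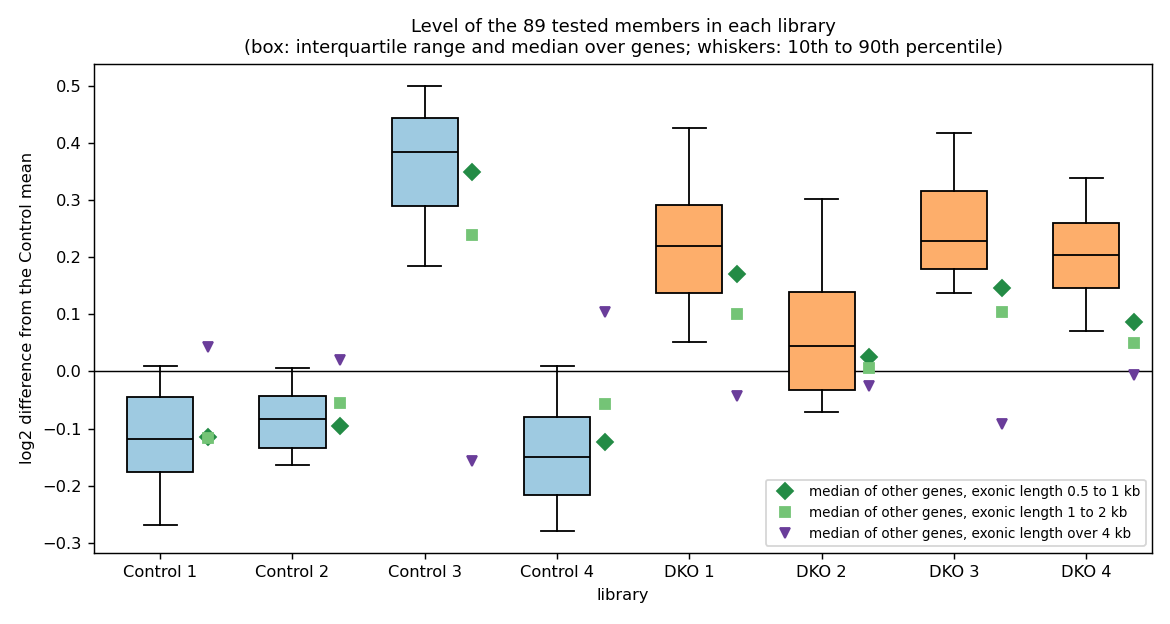
Level of the 89 tested members in each library as log2 difference from the Control mean (box, interquartile range and median over genes; whiskers, 10th to 90th percentile), with the median of other protein-coding genes by exonic length beside each box. Control 3 has the highest box, at a median of 0.39, the other controls lie below 0, and the 4 DKO libraries lie between them, with DKO 2 lowest at 0.05.

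Complex I, the NADH dehydrogenase where most electrons enter, had all 35 tested members above 0, with a median log2 fold change of 0.18. At an unadjusted p under 0.05 were 3 of the 35, where 8.43% of all genes were higher in DKO. The median was 0.30 without Control 3 and 0.10 with the length trend taken out. Ndufv3 (gene ID 78330, chromosome 17, 31520115 to 31531326 in GRCm38.p5), a small accessory subunit of the NADH-binding module, was at 49.05, 43.0, 49.9 and 37.95 CPM in Control 1 to 4 and at 71.7, 64.8, 55.75 and 52.7 in DKO 1 to 4. The groups did not overlap, with DKO 1 and DKO 2 the highest. Its log2 fold change was 0.45 ± 0.13 (SE; adjusted p = 0.139), the largest in the complex. Ndufs8 (gene ID 225887, chromosome 19, 3908863 to 3912774), which holds iron-sulfur clusters on the way to ubiquinone, ran from 54.3 to 71.8 CPM in Control and from 72.0 to 83.1 in DKO (0.30 ± 0.11, adjusted p = 0.200). Here too the groups did not overlap, by a margin of less than 1 CPM between Control 3 and DKO 4.

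Other core subunits of Complex I differed less. Ndufs1, the largest core subunit, with iron-sulfur clusters of the NADH arm, was at 106 to 119 CPM in Control and 121 to 136 in DKO, without overlap (0.18 ± 0.09, adjusted p = 0.367). Ndufv1, which binds NADH, was at 100.4 ± 14.2 CPM and 106 ± 6.44 (mean ± SD, n = 4 each; log2 fold change 0.07). Control 3 had the highest Ndufv1 value of all libraries, and the groups overlapped. The smallest difference of the complex was in the accessory subunit Ndufa1, at 41.0 ± 7.08 and 42.1 ± 3.45 CPM (0.04), and the 29 tested accessory subunits had a median log2 fold change of 0.18.

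The 8 Complex I assembly factors, all above 0, had a median of 0.26 (0.34 without Control 3). At an unadjusted p under 0.05 were 3 of the 8, where 8.43% of all genes were higher in DKO. Ndufaf7 (gene ID 73694, chromosome 17, 78937106 to 78948052), a methyltransferase needed to assemble the complex, was at 20.7, 19.25, 22.9 and 17.3 CPM in Control and 23.99, 25.03, 26.7 and 25.2 in DKO, without overlap (0.33 ± 0.11, adjusted p = 0.191). Ndufaf1 (gene ID 69702, chromosome 2, 119655446 to 119662885), which builds the membrane arm, was at 18.4 to 20.01 CPM in Control and 22.04 to 24.2 in DKO, also without overlap (0.27 ± 0.10, adjusted p = 0.214). In Ndufaf1 Control 3, at 19.7 CPM, was not the highest control. Ndufaf3, an early assembly factor, had the largest difference, from 9.21 ± 1.92 to 12.5 ± 1.69 CPM (0.44 ± 0.18, adjusted p = 0.271), and Ndufaf4, its partner, the smallest, from 34.3 ± 1.59 to 35.0 ± 4.29 (0.03).

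Complex II is succinate dehydrogenase, an enzyme of the tricarboxylic acid cycle with no mitochondrially encoded subunit. Its 4 genes had log2 fold changes of 0.10 to 0.40, with the catalytic pair above the membrane anchors. Sdhb (gene ID 67680, chromosome 4, 140961271 to 140979197), the iron-sulfur subunit whose promoter is printed above, was at 104, 103, 137 and 96.9 CPM in Control 1 to 4 and at 148, 135, 157 and 141 in DKO 1 to 4. DKO 2 lay just below Control 3, and all other DKO values lay above all controls. The log2 fold change was 0.40 ± 0.12 (adjusted p = 0.154), and without Control 3 it was 0.52, with an adjusted p of 0.0211. Across the alternative analyses it ran from 0.325 to 0.521, and its adjusted p from 0.0103 to 0.388.

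Sdha (gene ID 66945, chromosome 13, 74322255 to 74350240), the flavoprotein that oxidises succinate, was one of the few members in which Control 3 did not stand out. It was at 254, 269.5, 262.7 and 283 CPM in Control and at 316, 289, 330 and 325 in DKO. The groups did not overlap, and the log2 fold change was 0.24 ± 0.09 (adjusted p = 0.256). The anchors Sdhc and Sdhd, which bind ubiquinone in the membrane, had log2 fold changes of 0.10 ± 0.12 and 0.12 ± 0.11, and in both Control 3 was the highest of the 8 libraries.

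Complex III, which passes electrons from ubiquinol to cytochrome c, had all 8 tested members above 0, with a median of 0.20 and none at an unadjusted p under 0.05. The median was 0.38 without Control 3 and 0.12 without Control 4. Uqcr11 (gene ID 66594, chromosome 10, 80402997 to 80406821), a small subunit with the ETS match above, was at 55.8, 53.1, 79.3 and 54.8 CPM in Control and 74.8, 69.25, 79.8 and 70.9 in DKO. Only Control 3 overlapped with DKO. Its log2 fold change, 0.28 ± 0.14 (adjusted p = 0.373), was the largest of the complex, and without Control 3 it was 0.43, with an adjusted p of 0.0352. Across the alternative analyses it ran from 0.192 to 0.436, and its adjusted p from 0.0236 to 0.692.

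The redox subunits of Complex III overlapped between the groups. Uqcrfs1, the Rieske iron-sulfur protein, was at 102 ± 22.3 CPM in Control and 118 ± 7.69 in DKO (0.21 ± 0.14), and Cyc1, cytochrome c1, at 125 ± 31.9 and 143 ± 13.95 (0.20 ± 0.17). Uqcrb, which helps form the ubiquinone site, had the smallest difference, from 95.2 to 138 CPM in Control and from 103 to 128 in DKO (0.07 ± 0.13). In each of these 3 genes Control 3 was the highest of the 8 libraries.

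Complex IV, cytochrome c oxidase, has core subunits encoded in mitochondria and nuclear subunits that stabilise and tune them, several with isoforms used in particular tissues. The 11 common nuclear subunits were all above 0 but lay low, between 0.06 and 0.21, with a median of 0.12. Over all 17 tested members of the complex the median was also 0.12, and it was 0.27 without Control 3, 0.08 without Control 2, 0.06 without Control 4 and 0.02 with the length trend taken out. Cox4i1 (gene ID 12857, chromosome 8, 120668225 to 120674209), the common form of the largest nuclear subunit, was at 235, 237, 347 and 227 CPM in Control and 286, 273, 299 and 291.5 in DKO. Control 3 lay above all DKO libraries and the other 3 controls below them, and the log2 fold change was 0.14 ± 0.14 (adjusted p = 0.717). Cox5a, another common nuclear subunit, was at 90.35 ± 22.5 and 95.2 ± 10.8 CPM (0.08 ± 0.17).

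Among the restricted isoforms were the 3 largest differences of the 89 members, at low levels. Cox4i2 (gene ID 84682, chromosome 2, 152752537 to 152765039), the form of subunit 4 known from lung and from oxygen-sensing cells, was at 2.66, 3.84, 3.93 and 2.68 CPM in Control and 6.5, 7.54, 5.41 and 5.37 in DKO. The groups did not overlap, and Control 2 was nearly as high as Control 3. The log2 fold change was 0.92 ± 0.23, a 1.89-fold difference (adjusted p = 0.0872). Across the alternative analyses it ran from 0.64 to 1.02, and its adjusted p from 0.00176, with DESeq2, to 0.361.

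Ndufa4l2 (gene ID 407790, chromosome 10, 127514939 to 127517154), the relative of Ndufa4 known to be induced in low oxygen, was at 3.41, 4.86, 8.52 and 5.58 CPM in Control and 8.20, 9.60, 11.7 and 8.81 in DKO. DKO 1 lay below Control 3, and no other values overlapped. Its log2 fold change was 0.77 ± 0.27 (adjusted p = 0.195), and without Control 3 it was 1.05, with an adjusted p of 0.0488. Across the alternative analyses it ran from 0.614 to 1.05, and its adjusted p from 0.0127 to 0.446. Cox7a1 (gene ID 12865, chromosome 7, 30184171 to 30186030), the muscle form of subunit 7a, was at 0.940, 0.961, 1.57 and 0.946 CPM in Control and 1.37, 1.56, 3.93 and 1.98 in DKO. DKO 3 stood well above the rest, DKO 1 and DKO 2 lay below Control 3, and the log2 fold change was 1.00 ± 0.39 (adjusted p = 0.246).

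The other isoforms had log2 fold changes near or below 0. Cox6b2, the testis form of subunit 6b, was at 5.52 ± 1.29 CPM in Control and 5.81 ± 0.937 in DKO (0.07 ± 0.22), and Cox6a2, the heart and muscle form of subunit 6a, at 0.30 ± 0.116 and 0.247 ± 0.126 (-0.27 ± 0.48). Cox7a2l, known as a factor of supercomplexes of Complexes III and IV, was at 78.1, 81.2, 103 and 94.3 CPM in Control and 85.3, 78.2, 82.9 and 77.5 in DKO. It was the one member above 5 CPM with a log2 fold change below 0 (-0.14 ± 0.11, adjusted p = 0.597).

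**Figure D4:**
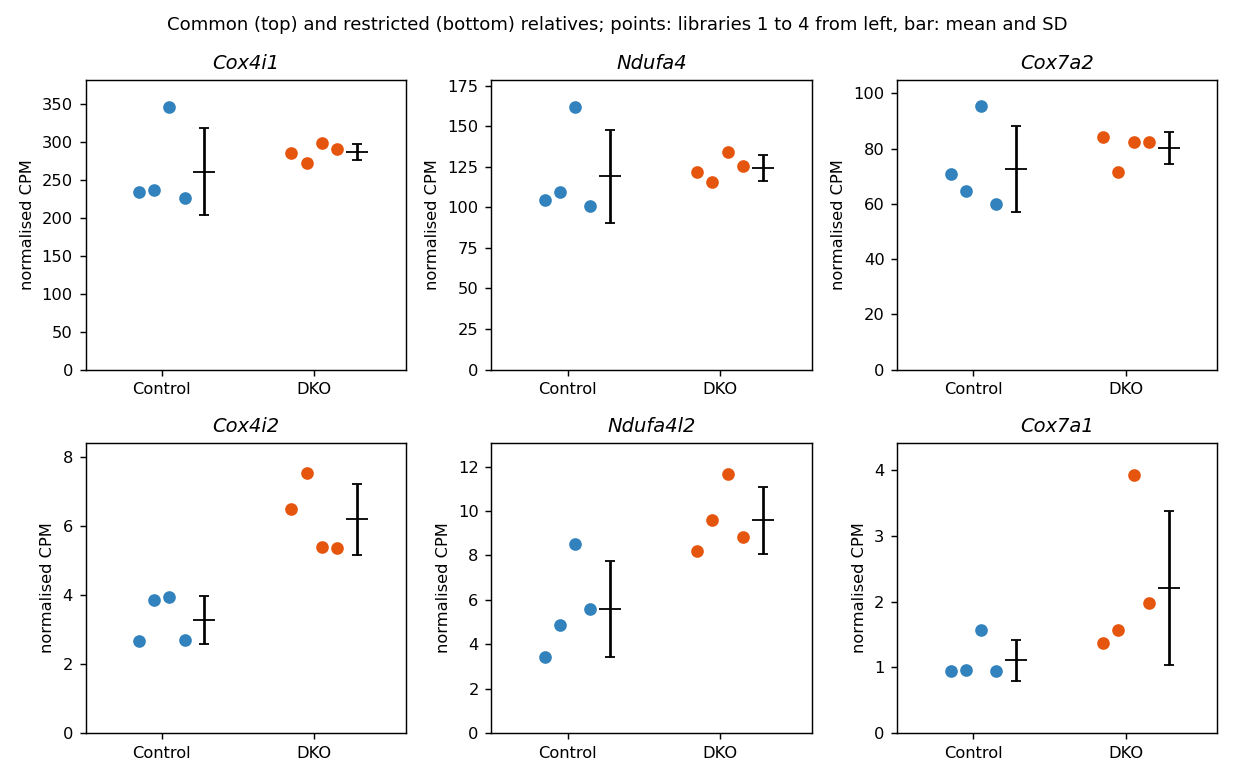
Normalised CPM of 3 common subunits (top) and their restricted relatives (bottom) in the 4 Control and 4 DKO libraries (points from left, libraries 1 to 4; bar, mean and SD; vertical axes start at 0). Control 3 is the highest point of each common subunit, and for Cox4i2 all DKO points, at 5.37 and above, lie over all Control points, at 3.93 and below.

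Ratios within a library do not depend on scaling. Per length, Cox4i2 was 0.393%, 0.563%, 0.393% and 0.411% of Cox4i1 in Control 1 to 4 and 0.789%, 0.959%, 0.627% and 0.639% in DKO 1 to 4. Ndufa4l2 was 1.51%, 2.06%, 2.44% and 2.57% of Ndufa4 in Control and 3.13%, 3.86%, 4.05% and 3.25% in DKO. In both ratios the groups did not overlap, and Control 3 did not stand apart. Both denominators were high in Control 3, however, which lowers the ratio there. Cox4i1 was at 347 CPM in it and at 227 to 237 in the other controls, and Ndufa4 at 162 and 101 to 109. In CPM, Ndufa4l2 of Control 3 lay above DKO 1. The exact two-sided permutation p of both ratios was 0.0286, the smallest that 70 assignments of 4 against 4 can give (0.1 adjusted over the 7 pairs computed). Cox7a1 was 3.11 ± 0.281% of Cox7a2 in Control and 5.65 ± 2.86% in DKO (exact permutation p = 0.0571, adjusted 0.133). The remaining 4 ratios, Cox6a2 to Cox6a1, Cox6b2 to Cox6b1, and Atp5g1 and Atp5g2 to Atp5g3, had exact permutation p-values of 0.229 to 0.457.

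Cox4i2 and Ndufa4l2 are known from pericytes, the cells around small vessels, and markers of vessel cells are given beside them, with their part not tested. The 6 endothelial markers were all above 0 (median 0.29, 0 called, summed 425 to 532 CPM in Control and 422 to 650 in DKO). Of 9 pericyte markers, a list added after the data were seen, 6 were above 0 (median 0.22, 0 called). Their sum was 448 to 610 CPM in Control and 448 to 733 in DKO. The 5 smooth muscle markers were all below 0 (median -0.56, 0 called). Markers of skeletal and heart muscle, where Cox7a1 and Cox6a2 are used, summed to 2.29 to 3.99 CPM in any library.

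Complex V, the ATP synthase, had 16 of 17 tested members above 0 and a median of 0.17, with none at an unadjusted p under 0.05. The median was 0.27 without Control 3 and 0.09 with the length trend taken out. The F1 head, which makes ATP, had a median of 0.19 over its 5 genes, the ring of c subunits that turns in the membrane 0.21 over 3, the peripheral stalk 0.12 over 4 and the other membrane subunits 0.06 over 5. Atp5a1 (gene ID 11946, chromosome 18, 77773768 to 77782869), the alpha subunit of the head, was at 788, 802, 883 and 815 CPM in Control and 965.5, 886, 927 and 962 in DKO. The groups did not overlap, though Control 3 and DKO 2 nearly met, and the log2 fold change was 0.19 ± 0.10 (adjusted p = 0.409). Atp5b, the beta subunit, was at 988, 1114, 1318 and 1171 CPM in Control and 1246, 1110, 1348 and 1331 in DKO, which overlap (0.13 ± 0.12).

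Of the 3 genes that encode the same mature c subunit, Atp5g3 (gene ID 228033, chromosome 2, 73908447 to 73911326) was by far the highest per length. It was at 201.9, 258, 340.1 and 237.9 CPM in Control and 284, 262, 407.5 and 372 in DKO, with DKO 3 and DKO 4 above all controls and the other DKO libraries among them (0.35 ± 0.19, adjusted p = 0.423). Atp5g1 was at 47.1 ± 10.6 and 54.4 ± 5.6 CPM (0.21 ± 0.15) and Atp5g2 at 41.3 ± 5.44 and 42.15 ± 5.74 (0.03 ± 0.13). Atp5md, a small membrane subunit, had the smallest difference above 5 CPM in the complex, at 43.3 ± 10.7 and 44.1 ± 1.82 CPM (0.03 ± 0.15).

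The genes around the respiratory chain were taken from lists. Over all genes tested, 46.9% were above 0, 0.759% were called higher and 0.498% lower. Of 41 tested assembly factors named otherwise than Nduf, 38 were above 0 (median 0.22), and 1 rose: Cox15, which makes the heme a of Complex IV, went from 34.0 ± 1.49 to 49.1 ± 2.61 CPM (0.53 ± 0.09, adjusted p = 0.0288). Its 4 DKO values, 47.4 to 53.0 CPM, lay above all Control values, 31.8 to 35.0, and Control 3 was at 34.35. Of 19 genes of coenzyme Q synthesis and other ubiquinone-linked enzymes, 16 were above 0 (median 0.22) and none was called, with the smallest adjusted p for Coq9, needed to make ubiquinone (0.54 ± 0.12, adjusted p = 0.0712).

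Of 18 genes of the tricarboxylic acid cycle and pyruvate oxidation, 17 were above 0 (median 0.12), and 1 was called higher, beside 0.759% of all genes. This was Suclg2, a subunit of succinyl-CoA synthetase, which went from 58.1 ± 1.22 to 78.6 ± 5.49 CPM (0.44 ± 0.09, adjusted p = 0.0459). Cytochrome c, the adenine nucleotide carriers and the outer membrane channels had 6 of 10 tested genes above 0 (median 0.06, 0 called). Genes of the mitochondrial membranes and import had 14 of 18 above 0 (median 0.08, 0 called). A list of uncoupling proteins together with Atpif1, the inhibitor of the ATP synthase, had 4 of 5 above 0 (median 0.31, 0 called). That median is the value of Atpif1 itself.

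Genes listed as regulators of mitochondrial gene expression lay on both sides of 0. The list mixes regulators of nuclear genes with genes that copy or transcribe mitochondrial DNA, among them Tfam, Twnk and Polrmt. Of 24 tested, 10 were above and 14 below 0, with a median of -0.09. Those above 0 were all of the latter kind except Ppargc1b and Esrra. Called lower was 1, beside 0.498% of all genes. This was Hif1a, the oxygen-regulated transcription factor subunit, which went from 655 ± 81.9 to 405.5 ± 46.5 CPM (-0.69 ± 0.13, adjusted p = 0.0414). Nrf1, whose motif is marked above, was at 47.05 ± 2.8 CPM in Control and 41.1 ± 4.07 in DKO (-0.20 ± 0.10, adjusted p = 0.400), and Gabpa, the DNA-binding part of GABP, at 117 ± 21.0 and 108 ± 10.7 (-0.12 ± 0.14). Tfam, which maintains mitochondrial DNA, was at 54.4 ± 5.78 and 54.7 ± 3.12 CPM (0.01 ± 0.10), and the coactivator gene Ppargc1a at 2.03 ± 0.985 and 1.55 ± 0.559 (-0.39 ± 0.42).

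**Figure D5:**
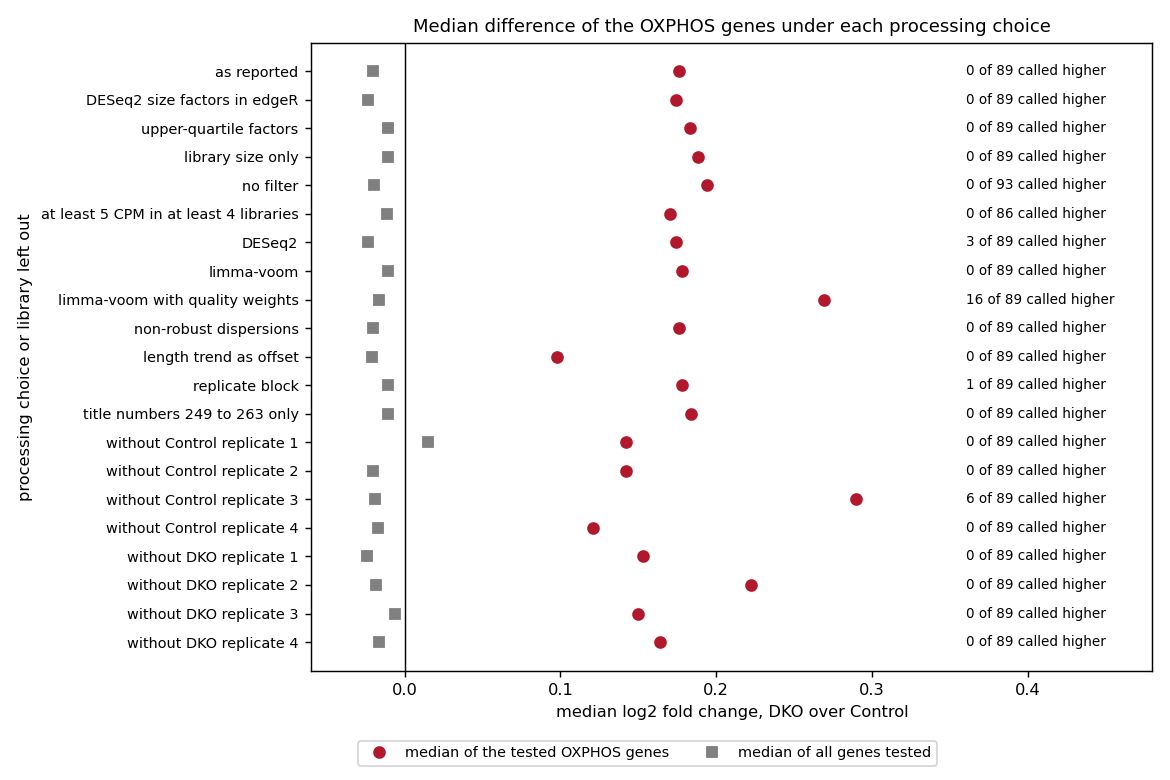
Median log2 fold change, DKO over Control, of the tested members (red circles) and of all genes tested (grey squares) under each processing choice or with 1 library left out, with the number of members called higher at the right. The members' median stays between 0.10 and 0.29 while that of all genes stays near 0, and calls range from 0 to 16 (limma-voom with quality weights).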

How the data were processed

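RNA was taken from whole ovaries of 4 Control and 4 DKO mice, grouped by the sample descriptions. Libraries were stranded and made from messenger RNA, per the labels' protocols. The authors deposited raw counts per gene, made with featureCounts of Subread 1.5.2 on RefSeq GRCm38.p5, per the file headers. The submitters' processing notes also list Trimmomatic 0.36 and 0.33, STAR 2.4.2a and edgeR 3.12.0. Symbols came from RefSeq GRCm38.p6, which matched 40290 of 41591 gene IDs (96.9%), and promoters from the same release. Of the pseudogenes left out, 15 carry a member-like name, and the most counted of them, Ndufs5-ps, had 227 counts over all libraries.

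Genes were kept by filterByExpr and fitted with edgeR 4.0.16 in R 4.3.3 (TMM factors of 0.943 to 1.06, robust quasi-likelihood F-test, two-sided, no covariate, Benjamini-Hochberg over all genes tested, threshold 0.05). The biological coefficient of variation was 0.281. SE is the log2 fold change divided by the square root of F. CPM carry TMM factors. Alternatives used limma 3.58.1, DESeq2 1.42.0, other scalings, filters, dispersions, a length trend, a replicate block, the 5 libraries with the higher title numbers alone (without Control 1, DKO 1 and DKO 2), and each library left out. No pair of libraries in a group agreed within sampling noise (reduced chi-square of at least 25.05). The test was tried on 3 simulated data sets of 16609 to 16612 genes with 200 changed, and recovered 24.4%, 71.1% and 92.9% of those changed 1.5-, 2- and 4-fold, with 5.76% of calls false.

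Members, lists and alternatives were chosen with earlier results of these data known. Named members were those called, the smallest p and the highest and lowest fold change per complex above 5 CPM, core subunits, and alternative isoforms. Other members in the text, among them Ndufs8, Ndufaf1, Sdhd, Atp5h, Ndufb7, Uqcr10 and Uqcrq, were named after their values were seen, and the printed promoters and the pericyte list were chosen after the data were seen. The series design gives 4 littermates per group, taken here as separate mice. Of the tested members, 1 enters the fits and counts and is not reported here by itself.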

Additional observations from a re-analysis of the deposited data

Results flagged for a closer look

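In groups of 4 libraries, a value was marked when its gap to the nearest other value, as a share of the group's whole range, passed Dixon's critical value. Chance marks about 1 in 20 groups. Over both groups of the 89 tested members, 30 of 178 groups (16.9%) were marked, 24 of them for Control 3, 5 for DKO 2 and 1 for DKO 3. Members share libraries, so these are not 30 separate events.

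Among the named members, Control 3 stood above the other controls in subunits of every complex. In Complex I and II it was at 122 CPM for Ndufv1, 137 for Sdhb and 145 for Sdhc. In Complex III it was at 135 CPM for Uqcrfs1 and 79.3 for Uqcr11. In Complex IV it was at 347 CPM for Cox4i1, 195 for Cox6b1, 137 for Cox7b, 195 for Cox8a, 162 for Ndufa4 and 1.57 for Cox7a1. In Complex V it was at 59.3 CPM for Atp5md.

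Among the DKO libraries, Cox7a2 stood apart downwards in DKO 2, at 71.7 CPM, and Atp5md upwards in DKO 3, at 46.8 CPM, within a group that otherwise spans less than 1 CPM.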

How the results depend on the processing

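The members' median log2 fold change ran from 0.0978 (length trend taken out) to 0.29 (without Control 3), and was above 0 in each of the 6 groups under every setting tried, while its size changed. The medians ran from 0.104 to 0.304 in Complex I, 0.208 to 0.346 in the assembly factors, 0.137 to 0.232 in Complex II, 0.121 to 0.381 in Complex III, 0.0226 to 0.267 in Complex IV and 0.0893 to 0.273 in Complex V. With limma-voom and quality weights, Complex I and IV were at 0.27 and 0.263. All-gene calls, 212 as reported, were 1118 with DESeq2, 1651 with limma-voom and quality weights, and 743 with the replicate block, and ran from 2 (without Control 2) to 506 (without Control 3) with 1 library left out. Without Control 4, DKO 1, DKO 2, DKO 3 and DKO 4 they were 27, 78, 66, 9 and 113. Members called, 0 as reported, were 3 with DESeq2 and 16 with quality weights, where 3.81% and 5.9% of all genes were called higher. With the replicate block in edgeR's test, 1 of 89 members was called (Sdhb, adjusted p = 0.0463), beside 743 of 16870 genes. With 1 library left out, members called ran from 0 to 6 (without Control 3, where 1.98% of all genes were called higher). Same-numbered libraries correlated at 0.156, -0.359, 0.312 and 0.468. Control 3, Control 4, DKO 1, DKO 3 and DKO 4 correlated best with their own number, and Control 1, Control 2 and DKO 2 did not. The highest correlation, 0.638, was between Control 1 and DKO 2. Whether the numbers pair the libraries was not settled, and the fit as reported takes them as unpaired.

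Log2 fold changes near 0 changed sign. With the length trend taken out, they were -0.0691 for Atp5g2, -0.0262 for Atp5md, -0.0148 for Cox6b2, -0.0595 for Ndufa1, -0.0204 for Ndufa4 and -0.0237 for Uqcrb, and without Control 1, DKO 1 and DKO 2 together -0.0152 for Atp5g2. With 1 library left out, they ran from -0.044 to 0.125 for Atp5g2, -0.0508 to 0.217 for Atp5md, -0.0224 to 0.252 for Cox5a, -0.03 to 0.204 for Cox6b2, -0.047 to 0.156 for Ndufa1, -0.0134 to 0.243 for Ndufa4 and -0.0312 to 0.0886 for Ndufaf4. The cause was not tested. For named members, 664 alternative values kept their direction and side of the threshold, 14 passed the test in addition and 20 changed sign.

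At 33145056 counts or more per library, counting error is small for all but the rarest isoforms, and precision is limited by the spread between the 4 libraries of a group.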
